A study of Oryza sativa Japonica Group with 9 samples.

Results

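OsbZIP23 and 7 related basic leucine zipper (bZIP) transcription factors of the ABF type were followed across genotypes and drought in rice seedlings. The 8 genes were chosen by locus name: OsbZIP23 (LOC_Os02g52780), OsbZIP46 (LOC_Os06g10880), TRAB1, also called OsbZIP66 (LOC_Os08g36790), OsbZIP72 (LOC_Os09g28310), OsbZIP12 (LOC_Os01g64730), OsbZIP10 (LOC_Os01g64000), OsbZIP40 (LOC_Os05g36160) and OsbZIP62 (LOC_Os07g48660). All 8 were found among the 55986 gene names of the expression tables. By their locus names they lie on chromosomes 2, 6, 8, 9, 1, 1, 5 and 7 in that order. The tables describe OsbZIP23, TRAB1 and OsbZIP72 alike as ABRE binding factor 4 and OsbZIP46 as abscisic acid responsive elements-binding factor 2. The other 4 are described only as members of the bZIP family.

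All groups shared the japonica background Zhonghua 11 (ZH11), and the above-ground parts of seedlings at the 4-leaf stage were harvested. The 3 genotypes were wild-type ZH11, a mutant of OsbZIP23 and a line overexpressing OsbZIP23, both taken over from an earlier study; the labels name neither the mutant allele nor the promoter of the overexpression construct. Plants of each genotype were either left unstressed or droughted to the point of full leaf rolling, and both were harvested on the same occasion. The 6 groups have 1 RNA library each, and nothing says how many plants a library holds. No group has a replicate, so an SD here is that of the 3 genotypes within a stress state, and p-values measure the spread between these 6 libraries about an additive model.

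ABF factors are the transcriptional end of abscisic acid (ABA) signalling. ABA bound by PYL receptors holds back clade A protein phosphatases 2C (PP2C), which frees SnRK2 kinases, in rice named SAPK, to phosphorylate ABF proteins. The phosphorylated factors bind ABA-responsive elements (ABRE) in the promoters of dehydrin and other protective genes. Since kinases control their activity, the transcript level of an ABF gene does not give the activity of its protein.

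Levels are given as CPM, read counts scaled to a common library size with TMM factors, and the libraries totalled between 9484892 and 13521022 reads. Leaf markers (3 small subunits of Rubisco and 2 light-harvesting genes) summed to between 24795 and 35663 CPM in the normal libraries. They summed to 399.6 CPM in ZH11, 402 CPM in the mutant and 1309 CPM in the library labelled overexpressor drought. Of 3 root markers, Lsi2 and RCc3 had 0 reads in every library and Lsi1 had 3.65 to 9.94 CPM; the meristem marker OSH1 had at most 2 reads. In whole shoots, fewer cells of a type and less RNA per cell cannot be told apart.

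OsbZIP23, a positive regulator of drought and salt tolerance in rice, is the gene altered in the 2 lines. Under normal growth it had 32.5 CPM in ZH11, 11.9 CPM in the mutant and 1325 CPM in the overexpressor. Under drought the order was 479.6 CPM in ZH11, 158 CPM in the mutant and 457 CPM in the library labelled overexpressor drought. The mutant was thus the lowest in both states while still carrying OsbZIP23 reads, and only the normal library of the overexpressor was far above the others. With drought the ratio was 14.8 in ZH11 (exact 95% interval 13.4 to 16.3) and 13.3 in the mutant (11.4 to 15.7). Between the 2 libraries labelled overexpressor it was 0.345 (0.334 to 0.357), but the drought one of them did not carry the raised level that its label implies. What is said below of that library is therefore tied to its label, which its OsbZIP23 level does not bear out. The cause of that level was not tested. These intervals are Clopper-Pearson intervals on the reads of 2 libraries; here and below they cover counting error only.

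In the overexpressor under normal growth, OsbZIP23 stood 40.8-fold above ZH11 (37.1 to 45.0), and 10 of 21934 genes had a higher ratio between those libraries. By deposited FPKM, a level per transcript length, 81 of the 33295 genes with a value in that library were above its 734.9 FPKM. Under drought the label was not matched by a raised level: that library had 0.954 of the ZH11 level (0.917 to 0.992). That direction depended on scaling, since the log2 ratio was -0.07 with TMM and -0.19 with RLE scaling, but 0.15 with total counts and 0.33 by FPKM. In the mutant, OsbZIP23 stood lower in this ratio than nearly all genes: 1.46% of 22151 genes were below it under normal growth and 1.21% of 20366 genes under drought.

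The tables held a second difference between the OsbZIP23 reads of the genotypes. The gene is listed with 2 transcripts, and the ratio of reads to FPKM is a measure of the transcript length that the authors' FPKM assumed. Set to 1 in ZH11 normal, and scaled so that genes of 1 transcript stayed at 1, this relative length was 1.00 in ZH11 drought, 1.04 in overexpressor normal and 0.887 in the library labelled overexpressor drought. In the mutant it was 0.800 under normal growth and 0.732 under drought. Both mutant libraries were therefore below all 4 other libraries. Of 2906 genes with 2 or more transcripts and at least 100 reads in every library, 0.688% were at or below OsbZIP23 in mutant normal and 0.688% in mutant drought. None of the 4075 genes of 1 transcript departed from 1 by more than 10% in any library. The ratio of mutant to ZH11 accordingly differed by unit, with 0.365 by CPM and 0.492 by FPKM under normal growth, and 0.330 by CPM and 0.392 by FPKM under drought. How reads were divided between the 2 transcripts was not tested, as the tables give genes only.

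**Figure D1:**
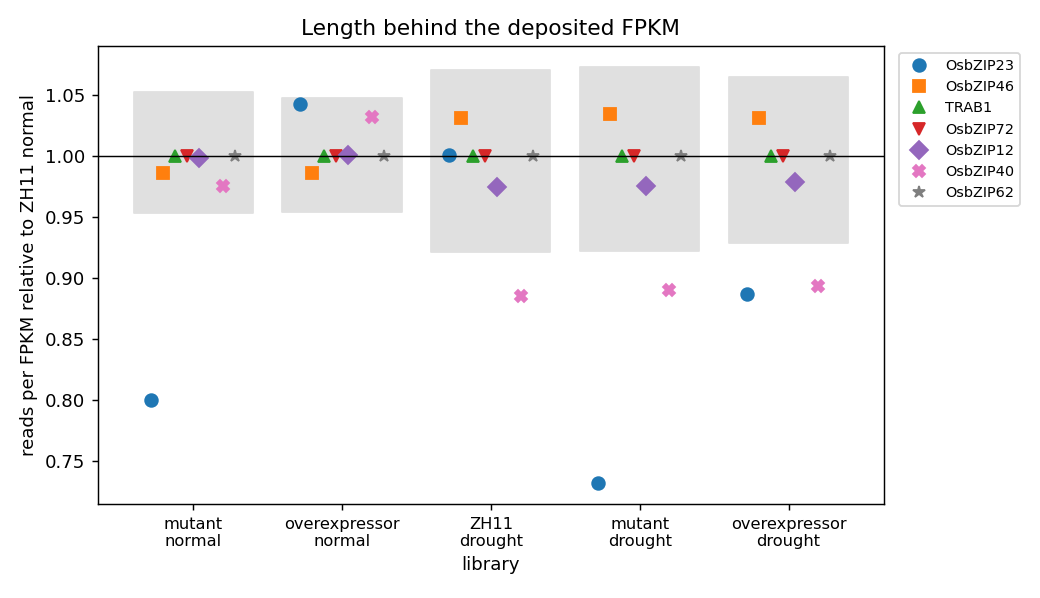
Reads per FPKM of each gene relative to ZH11 normal (y axis, ratio) in the 5 other RNA libraries (x axis); symbols are the 7 genes with a value and grey boxes span the 5th to 95th percentile of the genes with 2 or more transcripts. OsbZIP23 lies at 0.800 and 0.732 in the mutant libraries and at 0.887 in overexpressor drought, outside the boxes, and OsbZIP40 lies at 0.885 to 0.893 in the 3 drought libraries.

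OsbZIP40 was the only other of the 8 genes outside the 5th to 95th percentile, in the drought libraries of all 3 genotypes alike, at 0.885 for ZH11, 0.890 for the mutant and 0.893 for the library labelled overexpressor drought, with 41 to 53 reads in its normal libraries. OsbZIP46, with 3 transcripts, stayed between 0.986 and 1.03, and OsbZIP12, with 2, between 0.975 and 1.00. OsbZIP10 had no reads in ZH11 normal and has no such value. TRAB1, OsbZIP72 and OsbZIP62 are listed with 1 transcript each and stayed at 1.00 in every library.

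Drought was compared with normal growth over all 3 genotypes by edgeR's quasi-likelihood test with additive terms for stress and genotype. A gene was called at a Benjamini-Hochberg adjusted p under 0.05 over all 21409 tested genes. The test covered 7 of the 8 genes, since OsbZIP10 did not pass the filter on low counts. Of these, 4 rose and 1 fell, and OsbZIP23 and OsbZIP72 did not pass. The 1 that fell, OsbZIP62, passed that filter only through the normal libraries in which it is high. Its call is therefore no support for a fall. Among all tested genes 53.6% were called, 26.1% up and 27.5% down, so the 5 of 7 is read against a background in which more than every other gene changed. The median log2 fold change of the 7, OsbZIP62 included, was 2.42, against -0.15 over all tested genes. That median is the value of OsbZIP23 itself, which was not called (SE 1.35, edgeR adjusted p = 0.17).

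**Figure D2:**
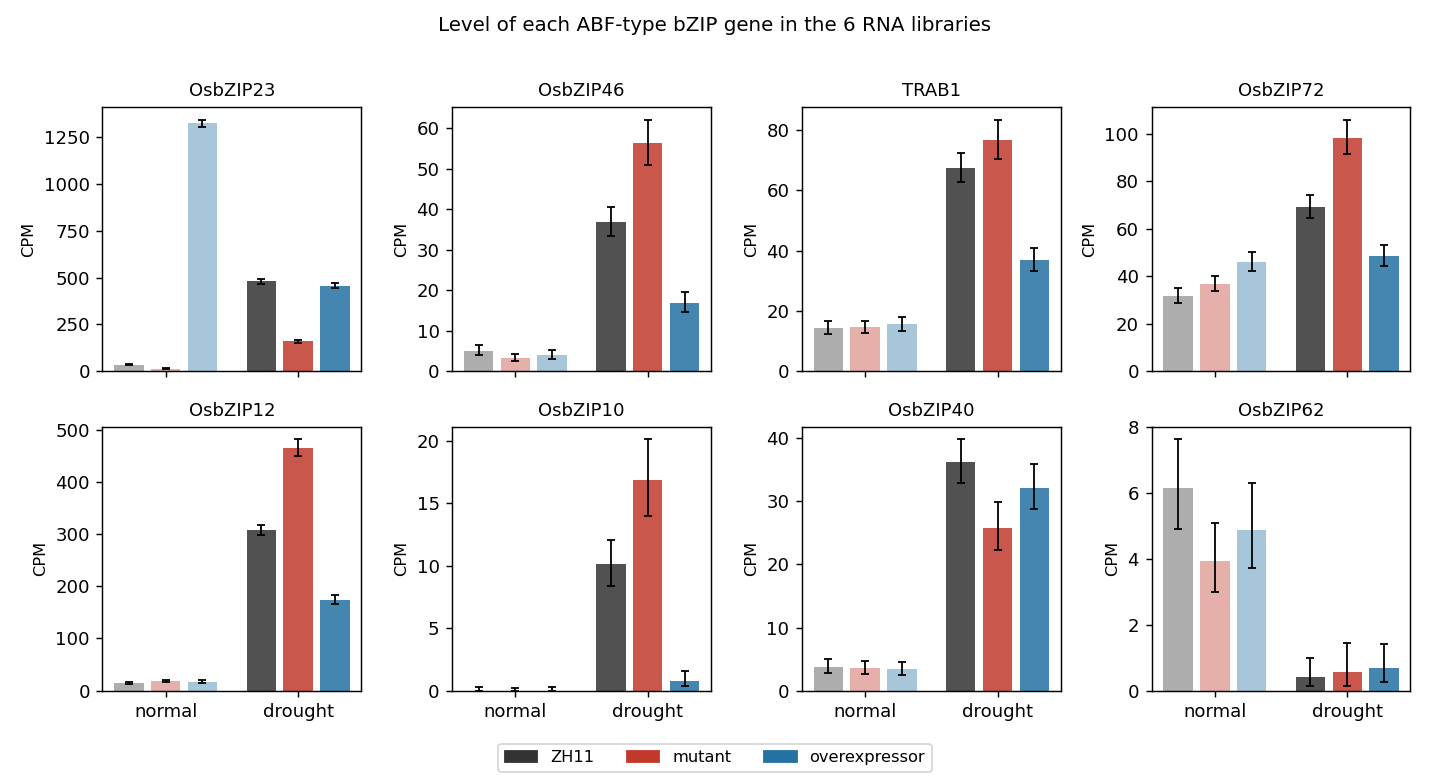
Level of each gene in CPM (y axis, linear from 0, a separate scale per gene) in the 6 RNA libraries, grouped by stress state (x axis); colours are genotypes as labelled and error bars are exact 95% counting intervals. OsbZIP23 peaks at 1325 CPM in overexpressor normal, and under drought OsbZIP46, OsbZIP72, OsbZIP12 and OsbZIP10 are highest in the mutant and lowest in the library labelled overexpressor drought, whose OsbZIP23 level is near that of ZH11; TRAB1 has this order with TMM or RLE scaling, but not with total counts.

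OsbZIP12, also called OsABF1, acts in ABA and stress responses and had the largest rise of the tested genes. It had 15.3 CPM in ZH11, 18.7 CPM in the mutant and 17.2 CPM in the overexpressor under normal growth. Under drought it had 308 CPM in ZH11, 465 CPM in the mutant and 174 CPM in the library labelled overexpressor drought. The stress states did not overlap, and the normal levels lay close together at 17.1 ± 1.70 CPM (SD, n = 3). Here and below, such non-overlap is described without the share of all genes that show it. With drought 53.6% of all tested genes were called, so it is not read as particular to these genes. The log2 fold change was 4.11 (SE 0.37, edgeR adjusted p = 7.8e-04), and the drought ratio was 20.2 in ZH11 (17.5 to 23.3), 24.9 in the mutant (22.0 to 28.3) and 10.1 between the libraries labelled overexpressor (8.74 to 11.7).

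OsbZIP40 had 3.82 CPM in ZH11, 3.61 CPM in the mutant and 3.40 CPM in the overexpressor under normal growth. Under drought it had 36.2 CPM, 25.8 CPM and 32.1 CPM in the libraries of the same labels. The states did not overlap, and under drought the mutant was the low library, as it was for OsbZIP23. It rose by 3.10 on the log2 scale (SE 0.25, edgeR adjusted p = 6.4e-04), and the intervals of its drought ratios overlap, at 9.48 in ZH11 (7.09 to 12.9), 7.15 in the mutant (5.24 to 9.89) and 9.46 between the libraries labelled overexpressor (6.82 to 13.4).

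OsbZIP46 encodes a drought-related factor that needs activation by phosphorylation. Its level under normal growth was 5.07 CPM in ZH11, 3.20 CPM in the mutant and 3.98 CPM in the overexpressor. With drought it reached 36.8 CPM in ZH11, 56.4 CPM in the mutant and 16.9 CPM in the library labelled overexpressor drought. The drought levels spread more than 3-fold between libraries, yet all lay above all normal levels. OsbZIP46 rose by 3.03 (SE 0.44, edgeR adjusted p = 0.0028). Its drought ratio was 7.26 in ZH11 (5.62 to 9.50), 17.6 in the mutant (13.0 to 24.4) and 4.25 between the libraries labelled overexpressor (3.07 to 5.98).

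TRAB1 binds ABRE and was first known as a partner of VP1, a regulator of ABA responses in seeds. It had 14.3 CPM in ZH11, 14.6 CPM in the mutant and 15.5 CPM in the overexpressor under normal growth, an SD of 0.617 CPM over the 3 genotypes. Under drought ZH11 had 67.6 CPM, the mutant 76.8 CPM and the library labelled overexpressor drought 36.8 CPM. The last was the low one under drought, again above all normal libraries. TRAB1 rose by 1.97 (SE 0.30, edgeR adjusted p = 0.0034), and its drought ratio was 4.72 in ZH11 (4.03 to 5.55), 5.27 in the mutant (4.49 to 6.20) and 2.37 between the libraries labelled overexpressor (1.99 to 2.85).

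OsbZIP72, an ABRE-binding factor of the ABA response, moved least. Its 31.7 CPM in ZH11, 36.6 CPM in the mutant and 46.1 CPM in the overexpressor under normal growth compare with 69.3 CPM, 98.4 CPM and 48.4 CPM in the drought libraries of the same labels. By TMM-scaled CPM the stress states did not overlap, but the normal and drought libraries labelled overexpressor were nearly level, with a ratio of 1.05 (0.929 to 1.19). By FPKM the states did overlap, with 27.0 FPKM in overexpressor normal and 25.7 FPKM in the library labelled overexpressor drought. With total counts the log2 ratio of these libraries was -0.08. In ZH11 the ratio was 2.18 (1.94 to 2.46) and in the mutant 2.69 (2.40 to 3.01). Over the 3 genotypes the log2 fold change was 0.88 (SE 0.32, edgeR adjusted p = 0.057). DESeq2 placed it on the other side of the threshold (0.97, adjusted p = 0.033).

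OsbZIP62, a bZIP factor linked to ABA and stress tolerance in rice, was the one gene that fell. It had 6.17 CPM in ZH11, 3.95 CPM in the mutant and 4.89 CPM in the overexpressor under normal growth, and 0.428, 0.561 and 0.692 CPM in the drought libraries of the same labels. The drought values rest on 5, 4 and 7 reads, and the groups did not overlap. The gene passed the filter on low counts through the normal libraries alone. The log2 fold change was -3.15 (SE 0.44, edgeR adjusted p = 0.0027), and the drought ratio was 0.0693 in ZH11 (0.0219 to 0.168), 0.142 in the mutant (0.0374 to 0.383) and 0.142 between the libraries labelled overexpressor (0.0546 to 0.310).

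OsbZIP10, also called OsABI5, is known from ABA responses of seeds and from pollen. It had 0 reads in all 3 normal libraries, which allows up to 0.220 CPM in ZH11, 0.204 CPM in the mutant and 0.249 CPM in the overexpressor at 3 counts per library. Under drought 118 reads (10.1 CPM) came from ZH11, 120 reads (16.8 CPM) from the mutant and 8 reads (0.791 CPM) from the library labelled overexpressor drought. Reads were thus found in the drought libraries alone, with the fewest in the last. Against the floor of 3 counts per library it was at least 45.8-fold higher with drought in ZH11, at least 82.3-fold higher in the mutant and at least 3.18-fold higher between the libraries labelled overexpressor. These bounds leave out the counting error of the drought reads; the exact 95% lower limits, which include it, were 36.7, 65.9 and 2.04.

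Without both overexpressor libraries, all 7 genes tested before passed, 6 upward and 1 downward. OsbZIP10 was tested there too and called upward. It passed the filter only through the drought libraries in which it is high, so its call is not counted. OsbZIP62, the 1 downward call, passed it only through the normal libraries in which it is high. Its call is here too no support for a fall. In that fit 62.0% of 21892 tested genes were called, 30.0% up and 32.0% down. OsbZIP23 then rose by 3.86 (SE 0.29, edgeR adjusted p = 7.7e-07), against 2.42 (SE 1.35, edgeR adjusted p = 0.17) with all 6 libraries. OsbZIP72 rose by 1.32 (SE 0.26, adjusted p = 9.1e-04). OsbZIP46 rose by 3.52 (SE 0.36) and OsbZIP12 by 4.53 (SE 0.31), while the SE was larger than over 6 libraries for OsbZIP40 (0.32 against 0.25) and OsbZIP62 (0.60 against 0.44). Leaving out only the library labelled overexpressor drought gave 3.86 for OsbZIP23 (edgeR adjusted p = 2.2e-07) and 1.33 for OsbZIP72 (adjusted p = 6.2e-04). The fit without both overexpressor libraries has 4 libraries, and its p-values rest on how alike ZH11 and the mutant responded.

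**Figure D3:**
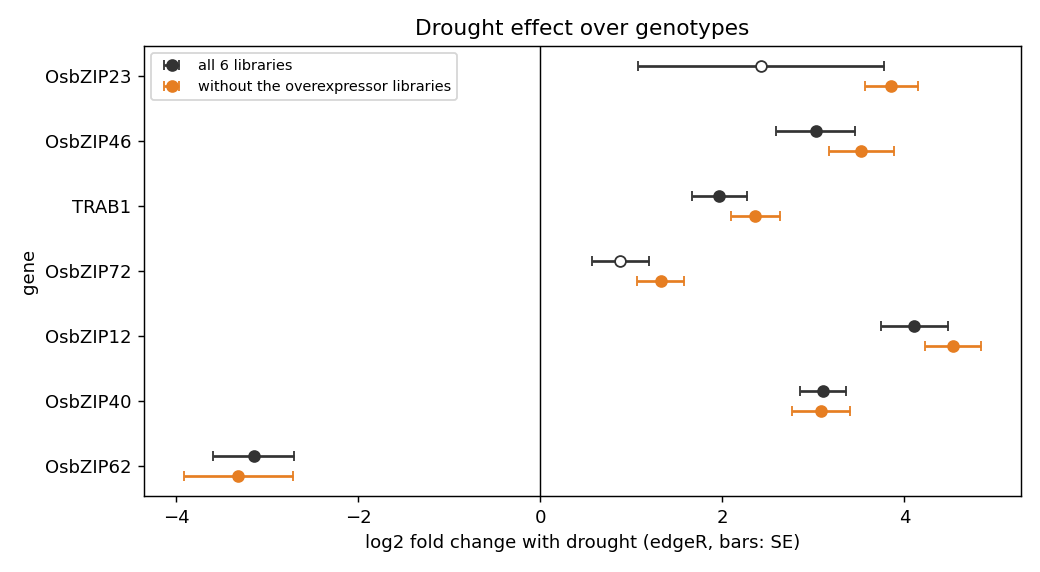
Log2 fold change with drought (x axis) of the 7 tested genes (y axis) in the additive edgeR fit over all 6 libraries and over the 4 libraries of ZH11 and mutant; bars are SE, filled points have an adjusted p under 0.05 and open points do not. OsbZIP23 moves from 2.42 (open) to 3.86 (filled) and OsbZIP72 from 0.88 (open) to 1.32 (filled), while the other genes are called in both fits.

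Genotype by genotype, drought ratios of 1 library over 1 library were described without a test. In ZH11, 7 of the 8 genes were at least 2-fold higher and 1 at least 2-fold lower under drought, where 54.5% of 23189 genes were past 2-fold, 25.0% up and 29.5% down, counting genes that reached 10 reads in one of both libraries. The mutant gave the same counts, 7 up and 1 down, against 59.2% of genes (26.5% up, 32.7% down). In ZH11 and the mutant OsbZIP10 reached 10 reads under drought only. OsbZIP62 reached them under normal growth only, in all 3 genotypes. The rule of 10 reads thus set the direction of these genes, and their place in the counts is no support. Between the libraries labelled overexpressor 4 of the 7 genes with enough reads were up and 2 were down, against 40.6% of genes (20.1% up, 20.6% down); OsbZIP23 itself was 1 of the 2. With total counts or FPKM, 7 of the 8 genes and not all 8 were past 2-fold in ZH11 and in the mutant, since OsbZIP72 had log2 ratios of 0.76 and 0.74 with total counts. The median drought log2 ratio of the genes counted was 2.92 in ZH11 (-0.15 over all genes) and 3.18 in the mutant (-0.25). It was 1.22 between the libraries labelled overexpressor (-0.04). OsbZIP62 is in all of these medians, and OsbZIP10 in those of ZH11 and the mutant.

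**Figure D4:**
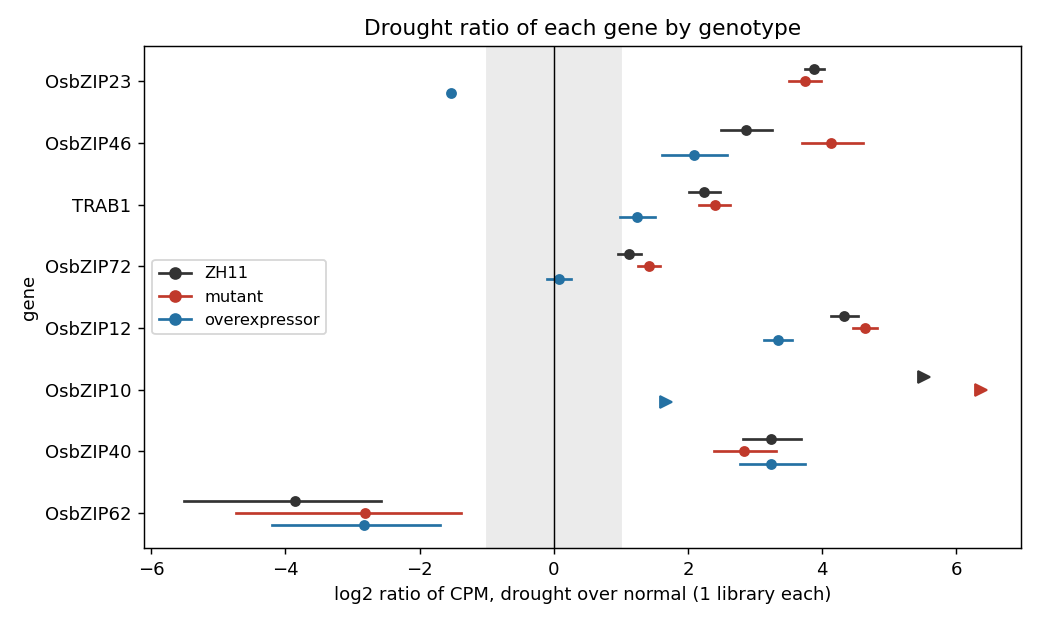
Log2 ratio of CPM, drought over normal (x axis), of each gene (y axis) in the 3 genotypes as labelled; points are ratios of 1 library each with exact 95% counting intervals, triangles are bounds for OsbZIP10 at a floor of 3 counts, and the grey band marks less than 2-fold. The ratio of the libraries labelled overexpressor lies to the left of ZH11 for OsbZIP23, OsbZIP46, TRAB1, OsbZIP72, OsbZIP12 and OsbZIP10, and OsbZIP23 is on the negative side there.

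Set against ZH11, the drought log2 ratio between the libraries labelled overexpressor was lower for 7 of the 8 genes, where 46.8% of 23912 genes were lower, and the median difference was -0.98 against 0.06 over all genes. OsbZIP23, which is among the 7 and whose normal level was already raised in that line, differed by -5.40. OsbZIP10 differed by -3.04, OsbZIP72 by -1.04, OsbZIP12 by -0.99, TRAB1 by -0.98 and OsbZIP46 by -0.78. OsbZIP10 had 0 reads in both normal libraries. Its difference therefore rests on 118 reads in ZH11 drought and 8 in the library labelled overexpressor drought. Only ZH11 drought reached 10 reads, so the place of OsbZIP10 among the 7 and in the median is no support. OsbZIP62 was the 1 gene that was higher, by 0.67. OsbZIP40 differed by -0.02 and was higher with total counts and by FPKM, which left 6 of 8 genes lower, with medians of -0.77 and -0.76. In the mutant 2 of 8 genes were lower with TMM or RLE scaling, with a median difference of 0.31 by TMM, but 4 of 8 were lower with total counts (median -0.01) and by FPKM (median 0.00), so that no common direction was held across scalings. By TMM, OsbZIP46 differed by 1.20 there and OsbZIP40 by -0.41. These comparisons share the ZH11 libraries, had 1 library a side and were not tested. The leaf markers moved with them: their sum in the library labelled overexpressor drought was above that of both other drought libraries, and its part in these differences was not tested.

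The mutant and the overexpressor were each compared with ZH11 over both stress states in the same additive fit. None of the 7 tested genes passed in the mutant, with 0 of 7 at an unadjusted p under 0.05 in edgeR and 0 called by DESeq2. Over all genes 0.0140% were called by edgeR, and with DESeq2 77 rose and 7 fell of 21409. OsbZIP23 had a log2 fold change of -1.56 (SE 1.23, adjusted p = 1.00), and the other 6 lay between -0.34 and 0.46. In the overexpressor 0 of 7 passed, with 0 at an unadjusted p under 0.05 and 0 called by DESeq2. Over all genes 0.0187% were called by edgeR, and with DESeq2 44 rose and 22 fell of 21409. OsbZIP23 had 3.53 there (SE 1.57, adjusted p = 0.94), and the other 6 lay between -0.71 and 0.06. Without the library labelled overexpressor drought, OsbZIP23 passed in both comparisons, at -1.56 in the mutant (adjusted p = 0.021) and 5.29 in the overexpressor (adjusted p = 1.7e-05); the latter then rests on 1 overexpressor library.

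Under normal growth the related genes lay close to ZH11 in both lines. In the mutant, OsbZIP23 was the 1 gene of 7 at least 2-fold apart, where 7.46% of 22151 genes were (3.44% higher, 4.03% lower). OsbZIP46 had a ratio of 0.632 (0.427 to 0.929), OsbZIP62 0.640 (0.450 to 0.906), OsbZIP72 1.16 (1.02 to 1.31) and OsbZIP12 1.22 (1.02 to 1.47). The intervals of TRAB1 and OsbZIP40 included 1. In the overexpressor, where OsbZIP23 was 40.8-fold up, it was again the 1 gene of 7 past 2-fold, where 6.22% of 21934 genes were (2.36% higher, 3.86% lower). OsbZIP72 had a ratio of 1.45 (1.28 to 1.65), and the intervals of OsbZIP46, TRAB1, OsbZIP12, OsbZIP40 and OsbZIP62 included 1.

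Under drought, the mutant and the library labelled overexpressor lay on opposite sides of ZH11 for several genes. In the mutant, OsbZIP12 stood at 1.51 times ZH11 (1.44 to 1.58), OsbZIP46 at 1.53 (1.33 to 1.76), OsbZIP72 at 1.42 (1.28 to 1.57) and OsbZIP10 at 1.67 (1.28 to 2.17). OsbZIP40 was lower at 0.713 (0.596 to 0.850), and OsbZIP23 was the 1 gene of 7 past 2-fold, against 12.0% of 20366 genes (5.97% higher, 6.07% lower). In the library labelled overexpressor drought, OsbZIP12 stood at 0.565 times ZH11 (0.533 to 0.598), TRAB1 at 0.544 (0.480 to 0.616) and OsbZIP72 at 0.699 (0.624 to 0.783). OsbZIP46 at 0.460 (0.383 to 0.550) and OsbZIP10 at 0.0784 (0.0331 to 0.160) were the 2 of 7 past 2-fold, against 19.7% of 21404 genes (11.2% higher, 8.51% lower). For OsbZIP10, 21401 of those 21404 genes had a higher ratio. It reached 10 reads only in the ZH11 library of this pair, so the rule of 10 reads set its direction.

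The order mutant above ZH11 above the library labelled overexpressor drought was thus held by 5 of the 8 genes with TMM scaling, where 29.3% of 21643 genes held it. With total counts 4 of the 8 held it, against 18.6% of genes. The 4 were OsbZIP46, OsbZIP72, OsbZIP12 and OsbZIP10, and they also held it by RLE scaling and by FPKM. TRAB1 was level between mutant and ZH11 with total counts (57.9 and 58.6 CPM). OsbZIP10 is in both counts but reached 10 reads only in the drought libraries of ZH11 and the mutant. Its place in these counts is therefore no support. Whether a gene of this order differs between genotypes beyond the spread of replicates could not be tested with 1 library each.

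Levels of different genes were compared per length, by deposited FPKM. In ZH11 under normal growth OsbZIP23 (18.7 FPKM) and OsbZIP72 (18.6 FPKM) were level at the top, with 27.3% and 27.1% of the summed FPKM of the 8 genes. TRAB1 (10.6 FPKM) and OsbZIP12 (9.60 FPKM) followed, then OsbZIP62 (5.36 FPKM), OsbZIP46 (3.17 FPKM) and OsbZIP40 (2.50 FPKM). Under drought OsbZIP23 (215 FPKM, 44.4%) and OsbZIP12 (154 FPKM, 31.8%) made up most of the sum. TRAB1 had 39.1 FPKM, OsbZIP72 31.6 FPKM, OsbZIP40 20.9 FPKM, OsbZIP46 17.4 FPKM and OsbZIP10 5.98 FPKM, and OsbZIP62 was last with 0.288 FPKM.

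Over the 3 genotypes under drought, OsbZIP23 had a mean of 190 ± 95.6 FPKM (SD, n = 3) and OsbZIP12 of 153 ± 50.7 FPKM. These SDs are between genotypes, not replicates, and that of OsbZIP23 includes its alteration in the mutant and the overexpressor. OsbZIP23 was above OsbZIP12 in ZH11 and in the library labelled overexpressor drought, and below it in the mutant. The order also changed between genotypes for TRAB1 (34.1 ± 8.11 FPKM) and OsbZIP72 (32.1 ± 6.61 FPKM). So did that of OsbZIP40 (18.4 ± 4.83 FPKM) and OsbZIP46 (16.6 ± 6.92 FPKM). No difference between genes was tested. OsbZIP10 (5.04 ± 4.10 FPKM) and OsbZIP62 (0.387 ± 0.138 FPKM) came last. Under normal growth OsbZIP72 (22.9 ± 4.22 FPKM) was above TRAB1 (11.2 ± 0.561 FPKM) and OsbZIP12 (11.0 ± 1.53 FPKM) in every genotype. The order of TRAB1 and OsbZIP12 changed between genotypes.

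In the mutant the leading gene was another in both states. Under normal growth OsbZIP72 held 35.5% of the sum, OsbZIP12 19.4%, TRAB1 17.9% and OsbZIP23 14.2%. Under drought OsbZIP12 held 49.5% and OsbZIP23 20.6%. In overexpressor normal OsbZIP23 held 92.7%, and in the library labelled overexpressor drought 59.5%, ahead of OsbZIP12 with 22.3%. OsbZIP12 thus stood first or next to OsbZIP23 in every drought library.

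The summed FPKM of the 8 genes under normal growth was 68.5 for ZH11, 65.0 for the mutant and 793 for the overexpressor, and 485, 409.5 and 454 in the drought libraries of the same labels. Among the normal libraries only that of the overexpressor stood far apart, through OsbZIP23. Without OsbZIP23 the sum was 49.8, 55.8 and 58.3 FPKM under normal growth and 269.7, 325 and 184 FPKM under drought in the same order. The normal sums without OsbZIP23 thus lay closer together than the drought ones. The 7 related genes together stood under drought at 5.42 times their normal sum in ZH11, 5.83 times in the mutant and 3.15 times between the libraries labelled overexpressor.

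**Figure D5:**
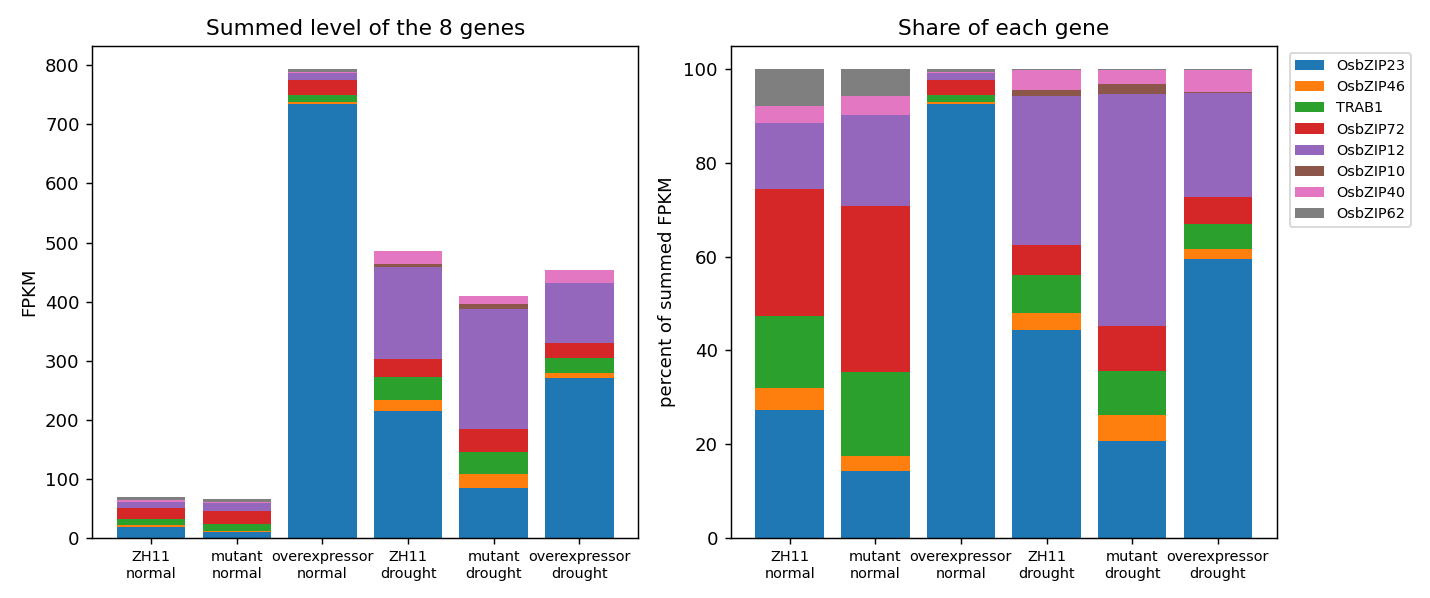
Summed FPKM of the 8 genes (left, y axis in FPKM) and the share of each gene in that sum (right, y axis in percent) in each of the 6 RNA libraries (x axis), stacked by gene. OsbZIP23 makes up 92.7% of 793 FPKM in overexpressor normal, and OsbZIP12 makes up 49.5% of the sum in mutant drought.

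The genes also differed in how alike their patterns were. Likeness was measured as the root-mean-square difference of log2 levels, centred per gene, over the 6 libraries. OsbZIP46 and TRAB1 were the closest pair at 0.55, followed by TRAB1 and OsbZIP72 at 0.56 and OsbZIP46 and OsbZIP40 at 0.60. OsbZIP23 was at least 2.16 from each of the other 7, and OsbZIP62 at least 1.68.

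Among the 11416 genes with a mean of at least 10 CPM, the nearest to OsbZIP12 was LOC_Os02g42940, described as plant VAP homolog 12, at 0.04. The nearest to TRAB1 was LOC_Os06g09370, described as LJRHL1-like 3, at 0.07. For OsbZIP72 it was LOC_Os10g35710, with no description, at 0.09, for OsbZIP46 LOC_Os03g21640, a protein of unknown function, at 0.12, and for OsbZIP62 LOC_Os08g44050, a C2H2-like zinc finger protein, at 0.14. OsbZIP40 was nearest to LOC_Os11g32240, described as cytochrome P450 51G1, at 0.14, and OsbZIP10 to LOC_Os05g46760, a MAP kinase kinase kinase, at 0.32.

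No gene came that close to OsbZIP23. The 5 nearest were LOC_Os01g43740, a cytochrome P450, at 1.29, LOC_Os02g22820 at 1.30, LOC_Os09g17560, of the O-methyltransferase family, at 1.397, and LOC_Os12g22489 and LOC_Os05g06399, both at 1.42. LOC_Os02g22820 was the 1 of these 5 that was lower under drought than under normal growth between the libraries labelled overexpressor, with 3.38 CPM in ZH11 normal, 11.5 CPM in ZH11 drought, 24.9 CPM in overexpressor normal and 16.3 CPM in the library labelled overexpressor drought. LOC_Os01g43740 went from 1.395 CPM to 11.6 CPM with drought in ZH11, and had 28.8 CPM and 64.5 CPM in the normal and drought libraries labelled overexpressor.

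The rest of the ABA pathway was read in the same fit, in which 53.6% of all tested genes were called with drought, 26.1% up and 27.5% down. Of 13 listed PYL receptors 4 passed the filter; with drought 0 rose and 1 fell, LOC_Os03g18600 by 3.75 on the log2 scale (SE 0.36, edgeR adjusted p = 9.2e-04), and 2 were called with total count scaling. Of 9 tested clade A PP2C genes 8 rose and 0 fell, OsPP2C51 by 8.02 (SE 0.73, edgeR adjusted p = 7.9e-04), and the median was 3.68. Of 10 SAPK kinases 6 rose and 1 fell, with a median of 1.25. The share of SAPK genes called in either direction was thus not far from the 53.6% of all genes. By direction, the 6 of 10 that rose compare with 26.1% of all genes, and the 1 of 10 that fell with 27.5%. SAPK1 rose by 3.76 (SE 0.40, edgeR adjusted p = 0.0012) and SAPK7 had -1.88 (SE 0.36, adjusted p = 0.0075). Without ZH11 normal or without ZH11 drought 4 SAPK genes were called. The calls over all genes fell there too, to 2892 up and 2346 down of 21828 and to 2648 up and 2250 down of 21969. All 6 ABRE-driven targets (Rab16A to Rab16D, OsLEA3-1 and OsEm1) rose, Rab16A by 11.79 (SE 0.75, edgeR adjusted p = 4.2e-04), with a median of 11.30. In the mutant and in the overexpressor 0 genes of these 4 lists passed. Over all tested genes only 0.0140% and 0.0187% passed there, so this 0 says nothing particular to the lists. The median log2 fold change of the targets was -0.01 in the mutant and 0.29 in the overexpressor.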

How the data were processed

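RNA libraries from 6 groups, 1 each, were used; 3 ChIP libraries against OsbZIP23 were not analysed here, as no annotation of their build was at hand. The submitters' processing notes name Trimmomatic 0.32, TopHat2 2.0.8 and edgeR 3.6.0; the counting program, genome build and annotation are not given in the sources used here. The deposited tables give estimated counts per gene in steps of 0.5, rounded here to whole numbers, and FPKM computed by the authors. Lines of 10 repeated gene names were summed. Levels are CPM with TMM factors (0.754 to 1.21). The additive fit used edgeR 4.0.16 under R 4.3.3, filterByExpr by stress state, and had 2 residual degrees of freedom; it was checked on simulated data. DESeq2 1.42.0, other scalings and filters, and each library left out were the alternatives. Single-library ratios add 0.5 CPM on the log2 scale and count genes that reached 10 reads in one of both libraries; printed ratios carry exact (Clopper-Pearson) 95% intervals without it. Genes named beside the 8 follow 2 rules: the smallest pattern distance, with 5 genes for OsbZIP23 and 1 for each other gene, and the largest called rise and fall of each pathway list. The genes, lists and rules were chosen with earlier results of these data known, and symbols come from general knowledge of rice. No sequence or coordinate was at hand for these genes on the files' build.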

Additional observations from a re-analysis of the deposited data

Results flagged for a closer look

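OsbZIP23 was lower in the library labelled overexpressor drought than in overexpressor normal, and higher under drought in ZH11. The drought log2 ratio between the libraries labelled overexpressor was -5.40 relative to that in ZH11, with ratios of 0.345 and 14.8, and the counting intervals of both exclude 1. For OsbZIP23 the library labelled overexpressor drought stood at 0.954 times ZH11 drought by CPM and at 1.26 times by FPKM. It thus lacked the raised level that its label implies. The ratio is therefore not read here as a drought response of that line, and its cause was not tested. With 1 library in each group this difference was not tested.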

How the results depend on the processing

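OsbZIP12, OsbZIP40, OsbZIP46, TRAB1 and OsbZIP62 kept their direction and their call with drought in each of 13 alternatives. The number of genes called with drought was 8, not 5, without a filter on low counts and without both overexpressor libraries. It was 5 to 8 with each library left out, and 8 when either overexpressor library was left out. OsbZIP10 is among these 8 and, where a filter was used, passed it through drought libraries alone, as OsbZIP62 did through normal ones. The calls over all genes moved too. Without a filter 6314 rose and 7042 fell of 42881 genes. Without ZH11 normal it was 2892 and 2346 of 21828, without ZH11 drought 2648 and 2250 of 21969. Without overexpressor normal it was 6421 and 7183 of 22363, without overexpressor drought 6595 and 7192 of 22489. OsbZIP23 passed with drought in 4 alternatives, those without a filter and without 1 or both overexpressor libraries, and had -0.32 with stress as the only term; the cause was not tested. In the mutant 0 genes were called without overexpressor normal, where 63 rose and 7 fell of 22363 genes. Without overexpressor drought 1 was called, OsbZIP23, where 153 rose and 32 fell of 22489. Without a filter 2 were called in the overexpressor, OsbZIP23 upward and OsbZIP10 downward, where 103 rose and 55 fell of 42881. Without overexpressor normal, OsbZIP10 had -3.65 in the overexpressor, which rests on 1 overexpressor library. Log2 fold changes in the mutant changed sign with libraries left out: OsbZIP23 ranged from -3.41 to 0.42, OsbZIP46 from -0.89 to 0.77, TRAB1 from -0.26 to 0.40, OsbZIP72 from -0.10 to 0.74, OsbZIP12 from -0.0050 to 0.82 and OsbZIP62 from -0.64 to 0.38. In the overexpressor OsbZIP23 ranged from -0.0276 to 5.29, TRAB1 from -0.91 to 0.13, OsbZIP72 from -0.59 to 0.59, OsbZIP12 from -0.89 to 0.23 and OsbZIP62 from -0.33 to 0.69; OsbZIP62 had 0.10 with total counts. Total count scaling shifted the median over all genes by -0.39 (log2) with drought and 0.12 in the overexpressor, with 4024 genes up and 7328 down against 5579 and 5896. By FPKM 0 genes, not 1, were past 2-fold in the mutant under normal growth, and by FPKM or total counts 1, not 2, in the overexpressor under drought. The OsbZIP23 share by CPM was 29.8% in ZH11 normal, 47.6% in ZH11 drought, 17.6% in mutant drought and 93.6% in overexpressor normal. By Pearson correlation 1 of the 5 nearest genes of OsbZIP23 was shared, and with a mean of at least 1 CPM 3 were. The mutant genes with a lower drought log2 ratio than ZH11 numbered 4, not 2, with total counts or FPKM, also chosen after seeing the data. With 20 reads in place of 100, an alternative chosen after seeing the data, 0.729% and 0.793% of genes were at or below the relative length of OsbZIP23 in the mutant. No paired analysis was possible because each group has 1 library, so that a replicate number pairs nothing. Genotype was already a term of the fit. With stress as the only term 6 genes were called, where 5704 rose and 5685 fell of 21409 genes. Binding at these genes, planned with other windows and thresholds, was not run. OsbZIP62 under drought and OsbZIP10 in the overexpressor rest on 4 to 8 reads each.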
